A study of Mus musculus with 20 samples.

Results

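Kupffer cells are the resident macrophages of the liver, and 9 genes that mark them in the mouse were followed here across 20 livers: Clec4f, Timd4, Vsig4, Marco, Cd5l, Adgre1, Csf1r, Cd163 and Folr2. They were taken by name from 25238 genes listed in both count tables, and all 9 were found. The livers came from male C57BL/6J mice that received an AAV8 vector by vein at 8 weeks of age and ate the diet labelled HF/HS until 25 weeks. There were 5 livers in each of 4 groups. In the knockdown experiment, shPKLR livers received a short hairpin RNA against Pklr, and shLUC livers a hairpin against firefly luciferase. In the overexpression experiment, PKLR livers received the Pklr coding sequence, and GFP livers the green fluorescent protein. Pklr encodes a pyruvate kinase made in liver and red blood cells, which forms pyruvate at the end of glycolysis. All vectors were driven by a hepatocyte promoter, that of thyroxine binding globulin, so Kupffer cells were not the cells the vectors were built to alter. The RNA was total RNA of whole liver tissue. For every level below, fewer Kupffer cells and less RNA per Kupffer cell cannot be told apart.

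Kupffer cells line the liver sinusoids, where they take up microbes, dying cells and old red cells from portal blood. Their identity depends on signals from neighbouring endothelial, stellate and liver parenchymal cells, among them Csf1, Il34, Notch ligands and members of the TGF-beta and BMP families. In mouse fatty liver disease, long-lived embryo-derived Kupffer cells that carry Tim-4 can be lost and replaced in part by cells that derive from blood monocytes. The replacing cells acquire Clec4f early and Timd4 late, if at all, and a further macrophage state, the lipid-associated macrophage, is marked by Gpnmb, Trem2 and Cd9.

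Each gene has its own task in the cell. Clec4f encodes a C-type lectin that in the mouse is found on Kupffer cells and few other cells. Timd4 encodes Tim-4, a receptor for phosphatidylserine on dying cells. Vsig4 encodes CRIg, a receptor for complement C3 fragments. Marco and Cd163 encode scavenger receptors, the first for bacteria and particles and the second for complexes of haptoglobin and haemoglobin. Cd5l encodes AIM, a protein that macrophages secrete into blood. Adgre1 encodes F4/80, Csf1r the receptor for Csf1 and Il34, and Folr2 a folate receptor of resident macrophages. Adgre1 and Csf1r are also made by other macrophages and monocytes.

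The promoter sequences are shown for the pair of markers whose levels moved most closely together across livers, Vsig4 and Cd5l, and for the pair that did so least, Marco and Cd163 (values below). They are RefSeq sequences of GRCm38.p6, 300 bases each, with 250 bases before the start of transcription and 50 after it. Capitals mark TGCTGA or its reverse complement TCAGCA, the core of the site bound by MAF proteins. The Vsig4 promoter is chrX:96293389-96293688 on the minus strand and the Cd5l promoter chr3:87357631-87357930 on the plus strand. Marco is read at chr1:120504975-120505274 on the minus strand and Cd163 at chr6:124304401-124304700 on the plus strand.
Vsig4: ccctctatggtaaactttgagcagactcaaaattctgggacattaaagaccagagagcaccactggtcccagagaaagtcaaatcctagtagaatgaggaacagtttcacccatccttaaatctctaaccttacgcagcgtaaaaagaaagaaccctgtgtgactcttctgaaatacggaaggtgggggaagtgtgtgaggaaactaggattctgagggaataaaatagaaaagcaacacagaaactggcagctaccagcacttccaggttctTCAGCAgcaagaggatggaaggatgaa
Cd5l: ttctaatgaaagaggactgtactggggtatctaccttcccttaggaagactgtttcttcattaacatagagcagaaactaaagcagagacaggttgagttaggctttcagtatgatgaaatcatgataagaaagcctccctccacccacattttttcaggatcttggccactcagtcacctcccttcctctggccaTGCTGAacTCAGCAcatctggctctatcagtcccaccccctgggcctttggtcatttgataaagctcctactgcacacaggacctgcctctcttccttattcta
Marco: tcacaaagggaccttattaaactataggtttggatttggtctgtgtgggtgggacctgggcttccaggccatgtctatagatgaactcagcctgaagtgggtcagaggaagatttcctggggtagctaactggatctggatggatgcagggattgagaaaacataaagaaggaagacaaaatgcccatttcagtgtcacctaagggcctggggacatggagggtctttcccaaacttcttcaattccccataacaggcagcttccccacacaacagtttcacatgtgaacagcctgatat
Cd163: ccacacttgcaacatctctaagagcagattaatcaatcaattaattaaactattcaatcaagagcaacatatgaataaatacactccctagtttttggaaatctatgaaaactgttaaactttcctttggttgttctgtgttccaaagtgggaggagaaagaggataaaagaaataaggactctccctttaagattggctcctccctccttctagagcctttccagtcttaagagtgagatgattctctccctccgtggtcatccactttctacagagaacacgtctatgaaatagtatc

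The MAF core starts 23 bases after the Vsig4 start, and at 54 and 46 bases before the Cd5l start. It is in neither the Marco nor the Cd163 window. Across 8 promoters read for 7 of the markers, 6 held it on either strand, against 19.5% of 32851 RefSeq mouse promoters of the same length. These were the promoters of Clec4f, Timd4, Vsig4 and Cd5l and both of the 2 read for Folr2, so Folr2 enters the count with 2 promoters. The other motif searched, GAGGAAGT, a site of the macrophage factor PU.1, was in 0 of the 8 on either strand and in 3.20% of all promoters. The motifs do not overlap each other. Adgre1 and Csf1r promoters were not used here. A match of letters is a description of the window and not a binding site. Whether either motif bears on how closely the markers moved together was not tested.

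The vectors had acted on their target. Pklr had 54.9 ± 23.3 CPM in shPKLR livers and 478.6 ± 116 CPM in shLUC livers (CPM, read counts scaled to library size, SD, n = 5 each), a log2 fold change of -3.13 (SE 0.305, edgeR adjusted p = 0.0027). It had 741.1 ± 210 CPM in PKLR livers and 118.2 ± 34.5 CPM in GFP livers (SD, n = 5 each), with a log2 fold change of 2.67 (SE 0.279, edgeR adjusted p = 0.0023). Pklr did not overlap between the groups of either experiment. Library totals lay between 29933820 and 45413803 counts in 19 libraries, while shPKLR replicate 4 had 167891680. Hepatocyte markers had far higher levels than Kupffer cell markers. The 7 hepatocyte markers, such as Alb, Ttr and Apob, summed to between 65530 and 117800 CPM over all livers. The 9 Kupffer cell markers summed to between 81.9 and 342.8 CPM.

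The knockdown comparison asks whether less Pklr in hepatocytes went with other levels of the Kupffer cell markers. No marker passed the test: 0 of the 9 had an adjusted p below 0.05 in edgeR's quasi-likelihood test, where 0.00641% of all genes did (1 of 15611, Pklr itself). In the same test 2337 genes and 2 of the 9 markers, Marco and Timd4, had an unadjusted p under 0.05. DESeq2 also called 0 markers, among 260 genes that it called. The log2 fold changes were above 0 for 8 of the 9, with a median of 0.30, against 52.8% of all genes tested and a median of 0.02. Without shLUC replicate 3 the markers' median was 0.18, and without shLUC replicate 2 it was 0.46.

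In overexpression, too, 0 of the 9 markers passed edgeR's test, where 2.03% of all genes did (322 of 15842). With unadjusted p under 0.05 there were 2985 genes and again 2 markers, here Cd163 and Marco. DESeq2 called 1 marker, Cd163, among 1107 genes that it called. The log2 fold changes of the markers were above 0 for 6 of the 9, against 51.1% of all genes, with a median of 0.23 against 0.01. That median was 0.03 without PKLR replicate 5 and 0.51 without GFP replicate 1.

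**Figure D1:**
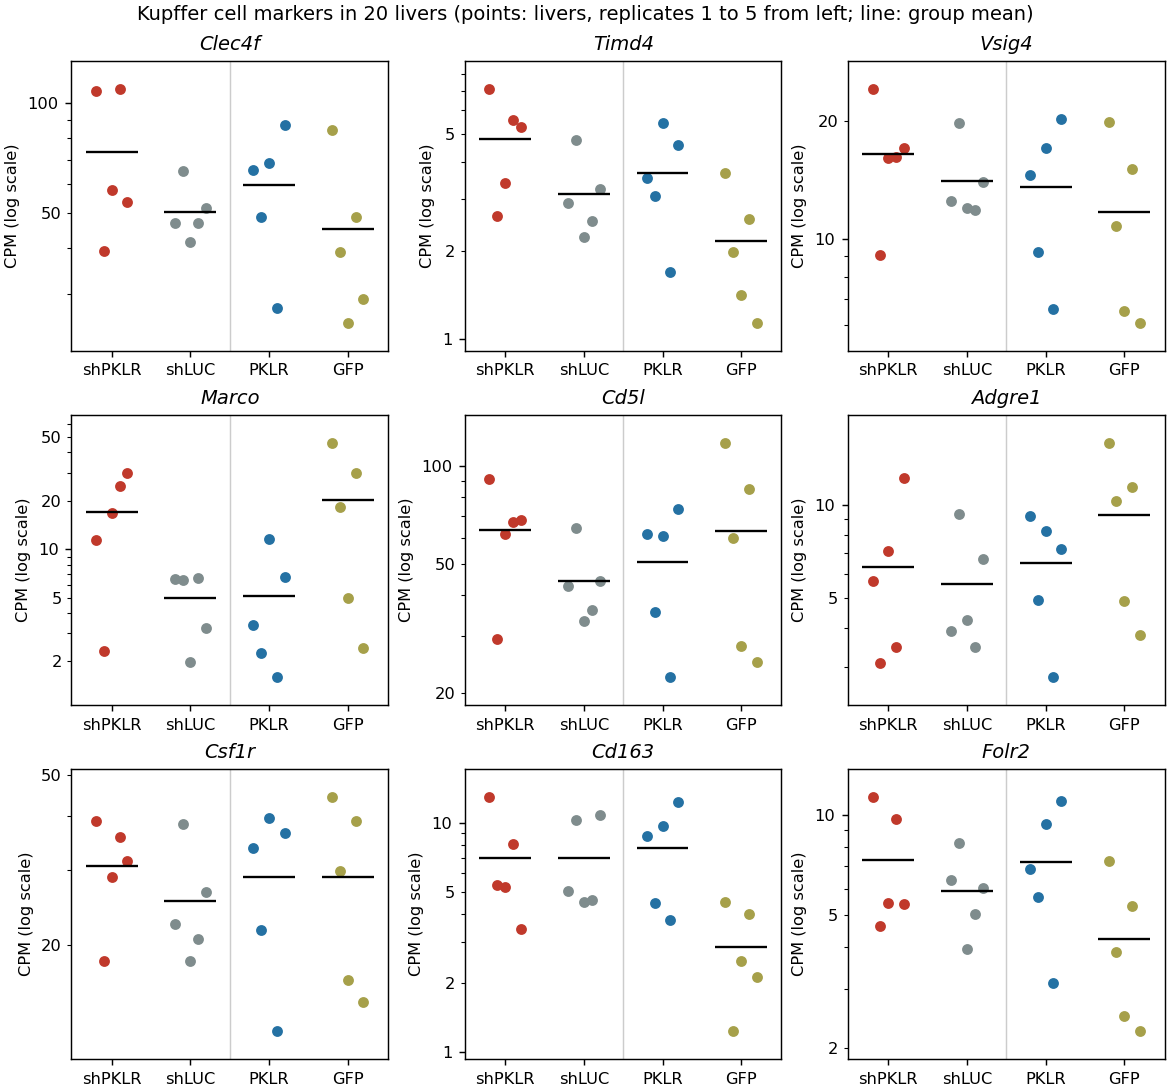
Level of each marker in CPM (log axis, 1 panel per gene) in each liver, with 5 points per group and a line at the group mean, for shPKLR and shLUC livers on the left of each panel and PKLR and GFP livers on the right. Every gene overlaps between the groups of an experiment, and Marco has the widest spread within groups, 18.8-fold between the highest and the lowest GFP liver.

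Levels by liver are plotted for all 9 genes in the panels of CPM by group, and the genes differ in abundance. Per 1000 bases of exon, Cd5l and Clec4f were the most abundant, at 31.1 and 29.8 CPM per kb in the mean shPKLR liver. Cd163 was the least, at 1.28 CPM per kb in the same livers. Vsig4 had 11.1, Marco 8.80, Csf1r 5.31, Folr2 4.72, Timd4 2.20 and Adgre1 1.95 CPM per kb there. The lowest count behind any value was 42 reads, for Timd4, and the highest was 17770, for Clec4f, so counting error is largest for Timd4, Cd163, Marco and Folr2.

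Clec4f (ENSMUSG00000014542, GRCm38 chromosome 6, 83644542 to 83656187) is the marker most restricted to Kupffer cells in the mouse. In shPKLR livers it had 108.1, 39.19, 57.60, 109.3 and 53.56 CPM, and in shLUC livers 46.76, 65.12, 41.49, 46.95 and 51.56 CPM. The groups overlapped, with a pair of shPKLR livers, replicates 1 and 4, well above all others and replicate 2 below all shLUC livers. The log2 fold change was 0.54 (SE 0.264, edgeR adjusted p = 0.349). In PKLR livers Clec4f had 65.60, 48.59, 68.39, 27.30 and 87.35 CPM, and in GFP livers 84.34, 39.07, 24.93, 48.66 and 29.06 CPM. These too overlapped across nearly their whole range, with a log2 fold change of 0.41 (SE 0.375, edgeR adjusted p = 0.598).

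Timd4 (ENSMUSG00000055546, GRCm38 chromosome 11, 46810800 to 46844332) marks the long-lived resident cells. It had 7.08, 2.63, 3.41, 5.54 and 5.27 CPM in shPKLR livers, against 2.91, 4.76, 2.23, 2.52 and 3.23 CPM in shLUC livers. In this experiment 3 of 5 shPKLR livers lay above all shLUC livers. The log2 fold change of 0.61 (SE 0.277) had an unadjusted p of 0.048 and an adjusted p of 0.331 in edgeR. In overexpression it had 3.53, 3.06, 5.44, 1.69 and 4.58 CPM in PKLR livers, against 3.67, 1.98, 1.42, 2.56 and 1.14 CPM in GFP livers. The mean was higher in PKLR livers too, but the groups overlapped, with 2 PKLR livers above all GFP livers and a log2 fold change of 0.77 (SE 0.356, edgeR adjusted p = 0.269).

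Marco (ENSMUSG00000026390, GRCm38 chromosome 1, 120474538 to 120505024) had the largest fold changes among the 9, in opposite directions. It had 11.41, 2.31, 16.73, 24.63 and 29.62 CPM in shPKLR livers, against 6.54, 6.40, 1.97, 6.63 and 3.25 CPM in shLUC livers. All shPKLR livers but replicate 2 were above every shLUC liver, and the ratio of the means was 3.42. The log2 fold change of 1.77 (SE 0.529) had an unadjusted p of 0.0055 but an adjusted p of 0.23 in edgeR. It had 3.38, 2.27, 11.56, 1.60 and 6.69 CPM in PKLR livers, against 45.69, 18.19, 4.97, 29.98 and 2.44 CPM in GFP livers. Here 3 GFP livers, replicates 1, 2 and 4, lay above all PKLR livers, while GFP replicates 3 and 5 lay within their range. The ratio of the means was 0.252 and the log2 fold change -1.98 (SE 0.79, unadjusted p = 0.03, edgeR adjusted p = 0.21).

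The difference of these effects was itself tested in a model of all 20 livers. For Marco, the overexpression effect less the knockdown effect was -3.77 on the log2 scale (SE 1.00, edgeR adjusted p = 0.033), the only one of the 9 markers past the threshold, where 5.50% of all genes were (902 of 16407). With unadjusted p under 0.05 there were 4208 genes and 2 markers, Marco and Cd163. The control groups enter this value as well, and Marco averaged 4.96 ± 2.19 CPM in shLUC livers and 20.2 ± 18.0 CPM in GFP livers (SD, n = 5 each). Those groups differ in experiment, table and kind of vector, which cannot be told apart. Their Pklr levels were also unlike, at 478.6 ± 116 CPM in shLUC livers and 118.2 ± 34.5 CPM in GFP livers (SD, n = 5 each), without a test between them. The Marco call depended on single livers and on the model. It held in 10 of 20 fits that each left 1 liver out (adjusted p between 0.014 and 0.08, log2 values between -4.33 and -3.22). It was lost without shPKLR replicate 4 or 5, without shLUC replicate 2, 3 or 5, without PKLR replicate 1, 2 or 4, and without GFP replicate 1 or 4. It was also lost with no filter on low counts (adjusted p = 0.077), and with limma-voom (0.108), and it held in DESeq2 (0.0079).

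Cd163 (ENSMUSG00000008845, GRCm38 chromosome 6, 124304656 to 124330527) showed the opposite picture in overexpression. In PKLR livers it had 8.77, 4.48, 9.65, 3.77 and 12.29 CPM, against 4.48, 1.23, 2.49, 4.00 and 2.11 CPM in GFP livers. PKLR replicates 1, 3 and 5 lay above all GFP livers, replicate 2 was level with the highest of them, and the ratio of the means was 2.72. The log2 fold change was 1.46 (SE 0.406, unadjusted p = 0.0045), with an adjusted p of 0.096 in edgeR and 0.0046 in DESeq2. Leaving out any 1 of the 10 livers gave log2 fold changes between 1.23 and 1.69, with edgeR adjusted p between 0.074 and 0.181. In knockdown Cd163 had 12.92, 5.35, 5.21, 8.04 and 3.44 CPM in shPKLR livers and 5.02, 10.24, 4.52, 4.60 and 10.80 CPM in shLUC livers. The groups overlapped almost fully there, with a log2 fold change of -0.02 (SE 0.36, edgeR adjusted p = 0.981). The difference of the effects for Cd163 was 1.45 (SE 0.566, edgeR adjusted p = 0.12).

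Folr2 (ENSMUSG00000032725, GRCm38 chromosome 7, 101839988 to 101857194) followed the order of Clec4f and Timd4 in its group means, highest in shPKLR livers, then PKLR, shLUC and GFP livers. The means were 7.30 ± 3.00, 7.21 ± 3.10, 5.92 ± 1.60 and 4.24 ± 2.10 CPM in that order (SD, n = 5 each). Neighbours in this order differed by less than the larger of their SDs. Its log2 fold change was 0.30 in knockdown (SE 0.269, edgeR adjusted p = 0.579) and 0.77 in overexpression (SE 0.389, edgeR adjusted p = 0.318). Folr2 overlaps Gm10602 and Gm45319 on the other strand, and since the strand setting of the counting is not given in the sources used here, their reads cannot be told apart.

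Vsig4 and Cd5l, the closest pair across livers, had overlapping groups in both experiments. Vsig4 (ENSMUSG00000044206, GRCm38 chromosome X, 96247203 to 96293438) averaged 16.5 ± 5.32 CPM in shPKLR and 14.0 ± 3.34 CPM in shLUC livers, and 13.5 ± 5.59 CPM in PKLR and 11.7 ± 5.84 CPM in GFP livers (SD, n = 5 each). The log2 fold changes were 0.23 in each experiment (edgeR adjusted p = 0.613 and 0.795). Cd5l (ENSMUSG00000015854, GRCm38 chromosome 3, 87357881 to 87371073) averaged 63.3 ± 22.1 CPM in shPKLR livers and 44.0 ± 12.1 CPM in shLUC livers, with 3 shPKLR livers above all shLUC livers. Its log2 fold change was 0.52 (SE 0.258, edgeR adjusted p = 0.354). In overexpression Cd5l averaged 50.7 ± 21.1 CPM in PKLR livers and 63.0 ± 39.1 CPM in GFP livers, with a log2 fold change of -0.30 (SE 0.463, edgeR adjusted p = 0.774).

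The broad macrophage genes Adgre1 and Csf1r overlapped between the groups of both experiments. Adgre1 (ENSMUSG00000004730, GRCm38 chromosome 17, 57358691 to 57483527) averaged 6.31 ± 3.68 CPM in shPKLR and 5.54 ± 2.47 CPM in shLUC livers, and 6.47 ± 2.60 CPM in PKLR and 9.24 ± 4.92 CPM in GFP livers (SD, n = 5 each). The log2 fold changes were 0.17 (SE 0.379) in knockdown and -0.50 (SE 0.418) in overexpression, with edgeR adjusted p of 0.832 and 0.557. Csf1r (ENSMUSG00000024621, GRCm38 chromosome 18, 61100598 to 61132149) averaged 30.7 ± 7.89 CPM in shPKLR and 25.3 ± 7.93 CPM in shLUC livers, and 28.9 ± 11.3 CPM in PKLR and 28.9 ± 13.2 CPM in GFP livers (SD, n = 5 each). Its log2 fold changes were 0.27 (SE 0.224) and 0.01 (SE 0.377), with edgeR adjusted p of 0.545 and 0.991. Csf1r overlaps Mir6983 and, on the other strand, Hmgxb3, so its counts carry the same uncertainty as those of Folr2.

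In the order of group means, neighbouring groups differed by more than the larger of their SDs in 2 of 27 cases over the 9 markers. One was Marco, with 16.9 ± 10.8 CPM in shPKLR livers, below GFP livers, and 5.10 ± 4.11 CPM in PKLR livers next in order, then shLUC livers. The other was Cd163, with 7.79 ± 3.60 CPM in PKLR, 7.04 ± 3.19 CPM in shLUC and 6.99 ± 3.70 CPM in shPKLR livers, and 2.86 ± 1.35 CPM in GFP livers at the end (SD, n = 5 each). Clec4f and Timd4 had the order of Folr2. Cd5l and Csf1r had the order shPKLR, GFP, PKLR and shLUC, Vsig4 the order shPKLR, shLUC, PKLR and GFP, and Adgre1 the order GFP, PKLR, shPKLR and shLUC. These orders run across separate experiments and are a description.

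**Figure D2:**
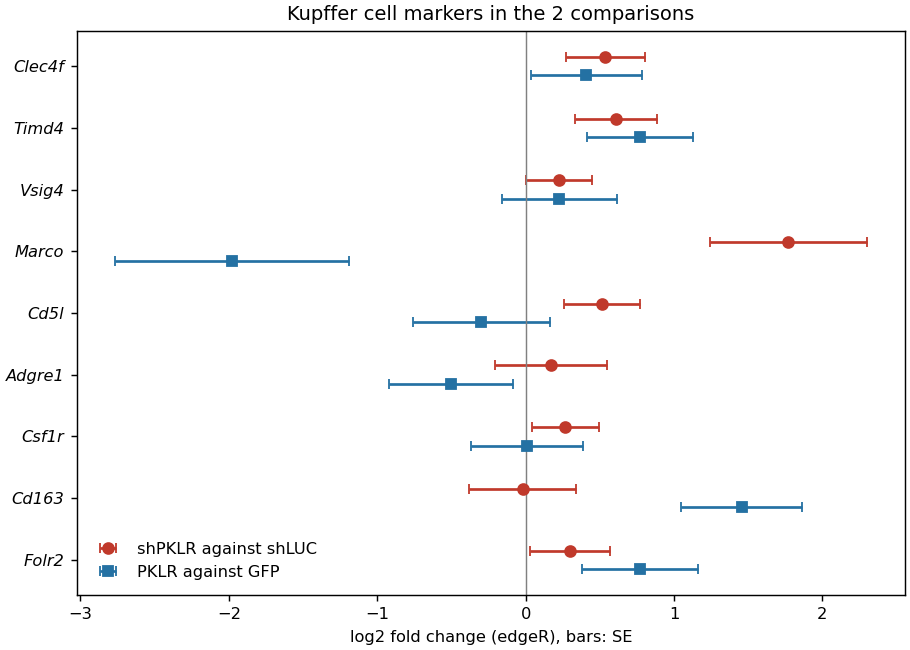
Log2 fold change with its SE (edgeR) for each of the 9 markers, for shPKLR against shLUC livers and PKLR against GFP livers. Marco lies at 1.77 in knockdown and -1.98 in overexpression, Cd163 at -0.02 and 1.46, and the other markers lie between -0.50 and 0.77.

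The plot of fold changes with their SE shows that the SEs were larger in overexpression than in knockdown for all 9 markers. Marco had the widest SE in both experiments, at 0.529 in knockdown and 0.79 in overexpression.

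Within a group, several livers lay above or below the mean in all markers at once, while in others the markers were mixed. Each marker's log2 CPM was taken as a deviation from the mean of its own group, and the deviations were compared across the 20 livers. This removes the differences between group means, while differences between livers of a group remain. Pklr itself ranged between 25.4 and 83.3 CPM in shPKLR livers and between 378.1 and 912.8 CPM in PKLR livers. In 5 livers all 9 markers were above their group's mean: PKLR replicates 3 and 5, GFP replicates 1 and 4, and shLUC replicate 2. In 6 livers none was: shPKLR replicate 2, shLUC replicate 3, PKLR replicates 2 and 4, and GFP replicates 3 and 5. The mean deviation over the 9 markers was highest in GFP replicate 1, at 1.03 on the log2 scale, and lowest in PKLR replicate 4, at -1.04. Each of these deviations was larger in size than the fold change of any marker other than Marco and Cd163. Both livers had the lowest Pklr of their groups, at 64.3 CPM in GFP replicate 1 and 378.1 CPM in PKLR replicate 4. Whether Pklr bears on the deviations was not tested.

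**Figure D3:**
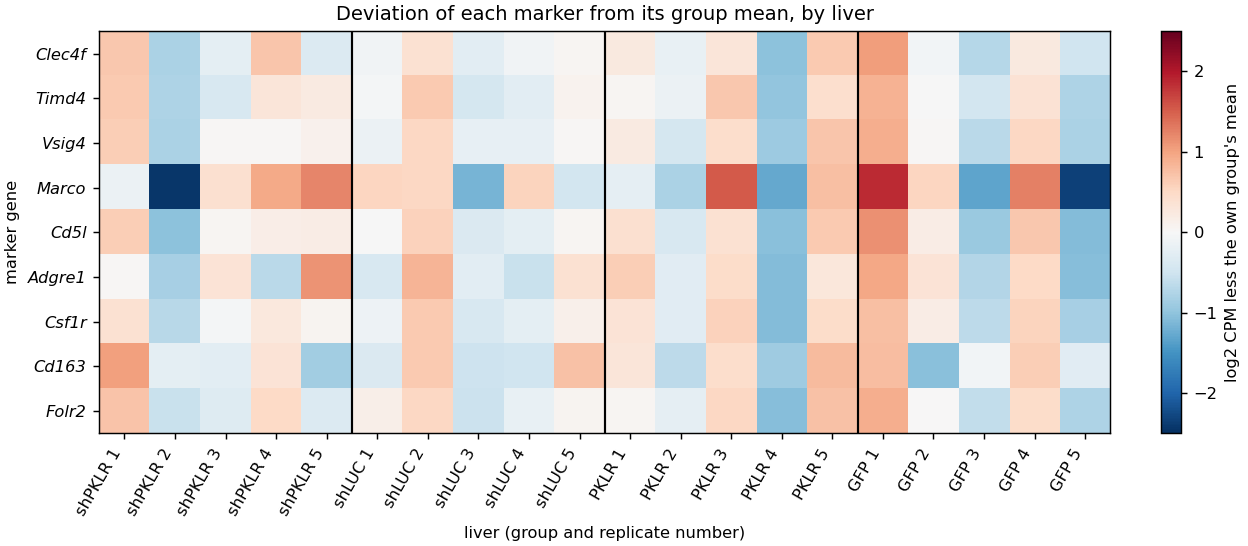
Deviation of each marker's log2 CPM from its own group's mean (colour scale, log2) in each of the 20 livers. GFP replicate 1 is above its group's mean in all 9 markers and PKLR replicate 4 below it in all 9, and the widest departure of 1 marker from the mean of the others is that of Marco in shPKLR replicate 2, at -1.72.

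The deviation map shows these livers as columns of 1 colour. Across the 36 pairs of markers, Pearson's r of the deviations ranged between 0.331, for Marco with Cd163, and 0.985, for Vsig4 with Cd5l, with a median of 0.828. It was above 0.8 in 22 pairs. In overexpression livers the median was 0.936 and in knockdown livers 0.69. Without the deepest library, shPKLR replicate 4, and without GFP replicate 1, the median was 0.828 again. These values describe 20 livers and carry no test: the genes of a liver share 1 library, its depth and its scaling factor.

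Marco, Adgre1 and Cd163 were the least like the others. Their median r with the other 8 was 0.779 for Marco, 0.737 for Adgre1 and 0.684 for Cd163, while the other 6 markers had medians between 0.90 and 0.918. Timd4 had the highest. In knockdown livers the medians were 0.548 for Marco, 0.484 for Adgre1 and 0.618 for Cd163. Those of the other 6 lay between 0.776 and 0.858 there. In overexpression livers Marco and Adgre1 had 0.924 each and Cd163 0.719, and the other 6 lay between 0.938 and 0.969. Marco and Adgre1 thus stood apart mainly in knockdown livers. Marco and Cd163 had an r with each other of -0.05 in knockdown livers and 0.604 in overexpression livers.

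Outside the 9 markers, 13217 genes were ranked by the r of their deviations with the mean of the markers. The 8 highest were Fpr1 (r = 0.959), Gm15922 (0.959), Apbb1ip (0.954), P2ry13 (0.953), Treml4 (0.952), Pira2 (0.951), Igsf6 (0.95) and C1qb (0.945). Fpr1 encodes a receptor for formylated bacterial peptides, Apbb1ip an adaptor of integrin activation in white blood cells, P2ry13 a receptor for ADP and C1qb a chain of complement C1q. By Spearman's rho 4 of these 8 were again among the 8 highest, and without shPKLR replicate 4 and GFP replicate 1 it was 6. None of the 8 passed the adjusted p in edgeR in either experiment, where 0.00641% of all genes did in knockdown and 2.03% in overexpression. Gm15922 and Pira2 belong to a family of near-identical receptor genes, so their counts are uncertain.

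Lists of marker genes for other cells of the liver were ranked the same way. The median r with the Kupffer cell markers was 0.849 for 12 genes of macrophages in general, highest for Cd68 at 0.919, and 0.621 for 15 further Kupffer cell genes. It was 0.629 for 4 monocyte genes, 0.471 for 13 genes of sinusoidal endothelium, 0.356 for 10 of stellate cells and 0.331 for 11 of lipid-associated macrophages. For 2 dendritic cell genes it was 0.357, for 2 lymphocyte genes 0.259, and for the 1 neutrophil gene compared, Csf3r, 0.697. For 7 hepatocyte genes it was -0.14, and for all genes -0.05. The summed levels of these lists bear on the overlap of groups. The 12 general macrophage genes summed to 151.7 to 277.7 CPM in shPKLR livers and 146 to 250.1 CPM in shLUC livers, and to 160 to 291.8 CPM in PKLR livers and 161.3 to 446.2 CPM in GFP livers. No listed gene of those in both tables was at 0 in all livers of a group. The neutrophil gene Ly6g, listed in 1 of the 2 tables, and the hepatocyte gene Tf were not included. The part of other macrophages in the levels of Adgre1 and Csf1r was not tested.

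Ratios between markers of the same liver need no scaling between livers, and they also cancel what moves all markers together. The ratio of Timd4 to Clec4f sets a marker of the long-lived resident cells against a marker of Kupffer cells in general. The share of those cells and the RNA per cell of either gene cannot be told apart in it. Its log2 mean was -3.91 ± 0.354 in shPKLR livers and -4.04 ± 0.183 in shLUC livers (SD, n = 5 each), a difference of 0.13 (exact two-sided permutation p = 0.548). It was -4.02 ± 0.239 in PKLR livers and -4.37 ± 0.217 in GFP livers, a difference of 0.35 with 3 of 5 PKLR livers above all GFP livers (exact permutation p = 0.048, adjusted over 4 ratio tests 0.095). The groups overlapped in both experiments, and neither difference passed the threshold after adjustment.

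Clec4f relative to Adgre1 sets the Kupffer cell lectin against a gene of macrophages in general. The counts of Clec4f were 18.9, 12.6, 8.11, 31.3 and 4.38 times those of Adgre1 in shPKLR livers, against 11.9, 6.95, 9.69, 13.4 and 7.68 times in shLUC livers. The log2 difference was 0.34 (exact permutation p = 0.532). In PKLR livers the counts were 7.12, 9.85, 8.32, 9.73 and 12.1 times those of Adgre1, against 5.34, 3.79, 5.10, 4.26 and 7.59 times in GFP livers. All PKLR livers but replicate 1 lay above all GFP livers, with a log2 difference of 0.87 (exact permutation p = 0.016, adjusted p = 0.063).

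**Figure D4:**
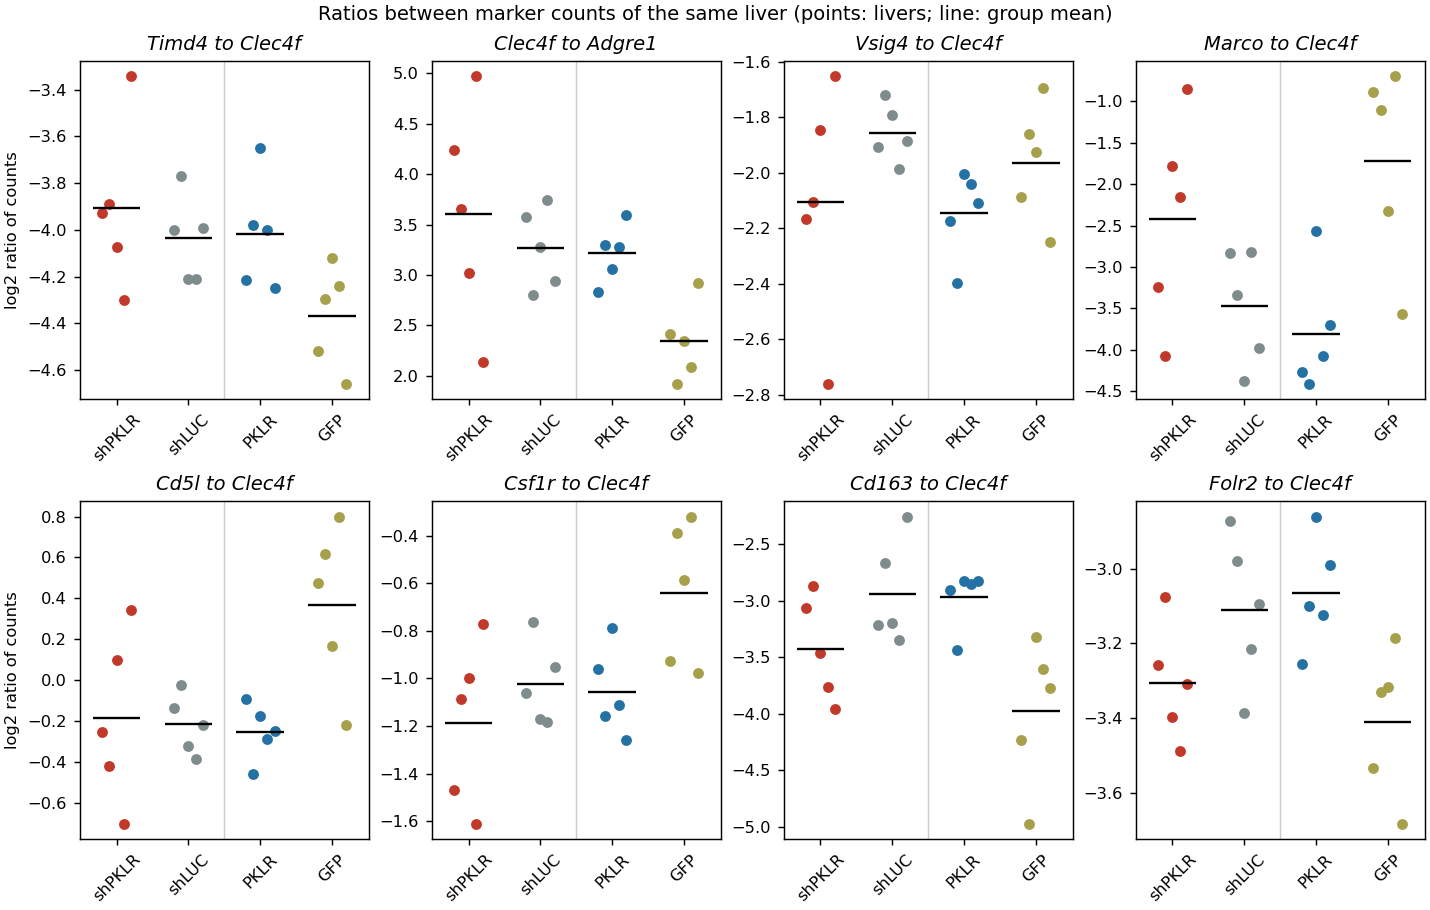
Log2 ratio of the counts of 2 markers in the same liver, 1 panel per ratio, with 5 points per group and a line at the group mean. In Marco to Clec4f 4 of 5 PKLR livers lie below all GFP livers, in Cd163 to Clec4f 4 of 5 lie above all GFP livers, and shPKLR and shLUC livers overlap in every panel.

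The same ratio to Clec4f was taken for the other 6 markers, a choice made after their levels were seen, and p-values were adjusted over those 12 tests. In overexpression Marco to Clec4f had a log2 mean of -3.81 ± 0.744 in PKLR livers and -1.72 ± 1.22 in GFP livers (SD, n = 5 each), with 4 of 5 PKLR livers below all GFP livers. The difference was -2.09 (exact permutation p = 0.016, adjusted p = 0.063). Cd163 to Clec4f ran the other way, at -2.97 ± 0.264 in PKLR livers and -3.98 ± 0.647 in GFP livers, with 4 of 5 PKLR livers above all GFP livers. Its difference was 1.01, with the same exact permutation p and adjusted p. The ratios of Folr2 (0.34) and Cd5l (-0.62) to Clec4f also differed with unadjusted exact permutation p of 0.016 and 0.024 and adjusted p of 0.063 and 0.071.

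For Csf1r the difference of the log2 ratio was -0.42 (exact permutation p = 0.048, adjusted p = 0.114) and for Vsig4 -0.18 (0.175, adjusted 0.233). In knockdown the 6 differences were 1.05 for Marco, -0.49 for Cd163, -0.25 for Vsig4, -0.20 for Folr2, -0.16 for Csf1r and 0.03 for Cd5l, with unadjusted exact permutation p between 0.127 and 0.889. None of the ratios passed an adjusted p of 0.05 in either experiment. The panels of ratios show that the GFP livers had the lowest mean of the 4 groups in Clec4f to Adgre1. They also had the lowest in the ratios of Timd4, Cd163 and Folr2 to Clec4f. Their mean was the highest in the ratios of Marco, Cd5l and Csf1r to Clec4f, and neither in that of Vsig4. The GFP and shLUC livers come from separate experiments and were not tested against each other.

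Further Kupffer cell genes from a list of 19 gave 0 calls among 18 tested in either experiment, with median log2 fold changes of 0.23 in knockdown and -0.01 in overexpression. Of all genes 0.00641% passed in knockdown and 2.03% in overexpression, so 0 calls do not set this list apart. The smallest p in knockdown belonged to Sucnr1, the succinate receptor, at -0.71 (SE 0.212, edgeR adjusted p = 0.228), and Hpgd, which degrades prostaglandins, at -0.49 (SE 0.165, edgeR adjusted p = 0.267). In overexpression Sucnr1 had 0.82 (SE 0.306, edgeR adjusted p = 0.18). For the difference of effects 1 of the 18 passed, Sucnr1, at 1.51 (SE 0.382, edgeR adjusted p = 0.027), where 5.50% of all genes did, so that the list's share was near that of all genes. It had an r of -0.45 with the Kupffer cell markers, the lowest of the 15 compared.

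Signals that maintain Kupffer cells come from their neighbours, and 0 of 8 such genes passed in either experiment, with medians of 0.17 and -0.24. Of all genes 0.00641% passed in knockdown and 2.03% in overexpression. Csf1, the growth factor bound by Csf1r, averaged 9.06 ± 2.37 CPM in shPKLR and 7.48 ± 1.35 CPM in shLUC livers, and 9.24 ± 0.792 CPM in PKLR and 10.9 ± 3.14 CPM in GFP livers (SD, n = 5 each). Its log2 fold changes were 0.27 and -0.23 (edgeR adjusted p = 0.475 and 0.499). Il34, the other ligand of Csf1r, had 0.15 and -0.32. The Notch ligands had 0.62 and -0.08 for Dll1, and 0.19 and -0.25 for Dll4. Tgfb1 had 0.21 and -0.36. The BMP ligands had -0.23 and -0.44 for Gdf2, and -0.57 and -0.12 for Bmp10. Gas6, a ligand of the Mertk receptor, had -0.35 and 0.14. Each pair is the log2 fold change in knockdown and then in overexpression.

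Genes of other macrophages and monocytes gave few calls, where 0.00641% of all genes passed in knockdown and 2.03% in overexpression. Of 12 general macrophage genes 0 passed in either experiment, with 11 log2 fold changes above 0 in knockdown (median 0.45) and 10 below 0 in overexpression (median -0.34). The smallest p belonged to Aif1 (1.03, edgeR adjusted p = 0.23) and Fcer1g (0.76, edgeR adjusted p = 0.256) in knockdown, and to Lyz2 (-0.92, edgeR adjusted p = 0.308) and Ptprc (-0.63, edgeR adjusted p = 0.379) in overexpression. Of 7 monocyte genes tested 0 passed in either experiment, all with a log2 fold change above 0 in knockdown (median 0.46) and below 0 in overexpression (median -0.65). Ccr2, the chemokine receptor of inflammatory monocytes, had -1.26 (SE 0.373, edgeR adjusted p = 0.104) and Cx3cr1 -1.43 (SE 0.437, edgeR adjusted p = 0.113) in overexpression, and in knockdown Cx3cr1 had 0.56 and Itgam 0.94 (edgeR adjusted p = 0.316 and 0.325). For the difference of effects, where 5.50% of all genes passed, 0 of the 12 general macrophage genes and 2 of the 7 monocyte genes did, Cx3cr1 at -2.01 (edgeR adjusted p = 0.028) and Itgam at -2.19 (edgeR adjusted p = 0.043). Both lists share their livers with the Kupffer cell markers, and their directions stand beside the markers' without a test between lists.

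Lipid-associated macrophage genes gave 0 calls in knockdown and 2 in overexpression, of 11 tested, with medians of 0.64 and -1.32. Over all genes 0.00641% passed in knockdown and 2.03% in overexpression. Gpnmb, a glycoprotein of lysosomes, was lower in PKLR than in GFP livers, with a log2 fold change of -3.55 (SE 0.745, edgeR adjusted p = 0.043). It averaged 0.747 ± 0.67 CPM in PKLR and 9.11 ± 6.97 CPM in GFP livers, beside 0.751 ± 0.913 CPM in shPKLR and 0.318 ± 0.199 CPM in shLUC livers (SD, n = 5 each). Lpl, lipoprotein lipase, was lower by 1.83 on the log2 scale (SE 0.325, edgeR adjusted p = 0.024). It averaged 13.9 ± 4.31 CPM in PKLR and 49.7 ± 20.1 CPM in GFP livers, beside 28.6 ± 10.25 CPM in shPKLR and 12.8 ± 1.95 CPM in shLUC livers. For both genes the GFP livers had the highest mean, and they were not tested against shLUC livers. In knockdown Lpl had 1.15 (edgeR adjusted p = 0.109) and Itgax 0.80 (edgeR adjusted p = 0.28). For the difference of effects, where 5.50% of all genes passed, 5 of the 11 did, all below 0, namely Gpnmb, Trem2, Itgax, Lpl and Cd63. The list was not uniform: 9 of the 11 values were above 0 in knockdown, and 9 were below 0 in overexpression and for the difference. Fabp5 went the other way, at -0.75 in knockdown, 1.08 in overexpression and 1.80 for the difference (edgeR adjusted p = 0.359, 0.297 and 0.103). Ctsd also had a difference above 0, at 0.36 (edgeR adjusted p = 0.227). The log2 fold changes of Marco had the signs of this list's medians in both experiments. Those were also the signs of the medians of the general macrophage, monocyte, stellate, dendritic, neutrophil and lymphocyte lists. The medians of the further Kupffer cell genes and of the niche signals had the same signs, the former at -0.01 in overexpression. The part of lipid-associated macrophages in the levels of Marco was not tested.

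In the remaining lists, 0 genes passed in knockdown, where 0.00641% of all genes did. In overexpression 0 of 13 sinusoidal endothelium genes, 0 of 7 dendritic cell genes, 0 of 3 neutrophil genes and 0 of 7 hepatocyte genes passed. Over all genes 2.03% passed in that experiment. Of 10 stellate cell genes 2 passed, Rgs5 (log2 fold change -1.12, edgeR adjusted p = 0.031) and Colec11 (-0.73, edgeR adjusted p = 0.036). Of 9 lymphocyte genes 1 passed, the immunoglobulin chain Igkc (-0.74, edgeR adjusted p = 0.039). All were lower in PKLR than in GFP livers. For the difference of effects, where 5.50% of all genes passed, 3 of the 10 stellate cell genes did, Rgs5 (-1.35), Des (-1.01) and Col3a1 (-1.67). So did 1 of the 7 dendritic cell genes, Flt3 (-2.23), and 1 of the 9 lymphocyte genes, Igkc (-1.28). All of these had an edgeR adjusted p between 0.011 and 0.04. In the sinusoidal endothelium, neutrophil and hepatocyte lists 0 genes passed for the difference of effects, and in the list of niche signals likewise 0. The medians in knockdown and overexpression were -0.06 and 0.10 for sinusoidal endothelium, 0.04 and -0.68 for stellate cells, and -0.12 and 0.06 for hepatocytes. They were 0.45 and -0.29 for dendritic cells, 0.78 and -0.28 for neutrophils, and 0.37 and -0.49 for lymphocytes. In knockdown the smallest p in each list belonged to Oit3 (-0.48) and Kdr (-0.38) of sinusoidal endothelium, Des (0.35) and Col3a1 (0.37) of stellate cells, Clec9a (0.88) and Xcr1 (0.45) of dendritic cells, and Csf3r (0.78) and S100a8 (0.85) of neutrophils. For lymphocytes these were Igkc (0.52) and Cd3g (0.52), and for hepatocytes Asgr1 (-0.17) and Serpina1b (-0.15). All 12 had an edgeR adjusted p between 0.2998 and 0.6001. In overexpression, beside the 3 genes that passed, they were Stab2 (0.33) and Lyve1 (-0.74) of sinusoidal endothelium, Flt3 (-1.06) and Cd209a (-1.22) of dendritic cells, and S100a9 (-1.22) and Csf3r (-0.28) of neutrophils. The last were Gzma (-1.23) of lymphocytes, and Asgr1 (0.14) and Hnf4a (0.09) of hepatocytes, and these 9 had an edgeR adjusted p between 0.102 and 0.74.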

How the data were processed

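Total RNA was extracted from frozen livers and sequenced after a stranded total RNA kit, per the labels' protocols, with 5 liver samples per group. The authors deposited 2 tables of whole-number counts per gene, not normalized, 1 per experiment. Per the submitters' processing notes the tools were HISAT2 and DESeq2 and the builds GRCm38 and mm10. Their versions, the counting program, its strand setting and the annotation release were not given in the sources used here. Symbols came from the GENCODE M21 annotation of GRCm38, which matched 26912 of 27052 genes in the knockdown table and 26146 of 26286 in the overexpression table.

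The tests were edgeR 4.0.16 quasi-likelihood fits (robust, filterByExpr, TMM) in R 4.3.3 over all genes, with Benjamini-Hochberg adjusted p-values called below 0.05. The SE is the log2 fold change divided by the square root of F. A joint model of 20 livers tested the difference of effects. CPM values used TMM factors over all 20 libraries, and log2 CPM a prior count of 2. Log2 ratios used a prior count of 0.5 and an exact two-sided permutation test, whose smallest possible p with 5 against 5 is 0.0079. Alternatives were RLE factors, DESeq2 1.42.0, no filter, a filter that kept genes over 1 CPM in 5 or more libraries, limma-voom (limma 3.58.1) with and without sample weights, a replicate block, 1 fit of all 20 libraries, mitochondrial and ribosomal RNA genes left out, shPKLR replicate 4 thinned to the depth of the others, and each liver left out. The steps were tested on simulated data.

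The members, the lists and the motifs were chosen with earlier results of these data known. Genes named outside the markers were the 2 of each list with the smallest p in each experiment, called genes, all niche signals, and the 8 genes most like the markers, with a mean of at least 1 CPM. One gene that this rule names is not reported here. Genes of the lists past the threshold for the difference of effects were named after their values were seen, as were Fabp5 and Ctsd. The hepatocyte gene Tf had no match by that symbol, and Slc1a3 did not pass the filter.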

Additional observations from a re-analysis of the deposited data

Results flagged for a closer look

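Vsig4 was at 19.78 CPM in shLUC replicate 2, apart from the other 4 shLUC livers by Dixon's test for 1 outlying value in 5. In that liver all 9 markers were above the mean of their group. Such a test was made in 36 combinations of marker and group, and chance alone marks about 1 in 20.

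For Marco, the overexpression effect less the knockdown effect was -3.775 on the log2 scale. This difference was tested itself in the model of all 20 livers (edgeR adjusted p = 0.033). The call held in 3 of 6 alternative settings and in 10 of 20 fits that each left 1 liver out.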

How the results depend on the processing

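No marker passed in knockdown under any alternative run, and in overexpression 1 did in DESeq2, Cd163. For the difference of effects the count of markers was 0 with no filter, limma-voom or a replicate block, and 0 to 1 with a liver left out. Genes called in knockdown were 1, and 7 with RLE factors, 17 with no filter, 260 in DESeq2, 8 in limma-voom, 11 with sample weights, 3 with a replicate block, 114 in 1 fit of all libraries, 7 without mitochondrial and ribosomal RNA genes, and 1 to 12 with a liver left out (12 without shPKLR replicate 2). In overexpression they were 322, and 1107 in DESeq2, 544 with a replicate block and 128 to 469 with a liver left out (128 without GFP replicate 4, 469 without GFP replicate 5). For the difference they were 902, and 1614 in DESeq2 and 485 to 1384 with a liver left out (485 without shLUC replicate 2, 1384 without shPKLR replicate 2). The cause was not tested.

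Values near 0 changed sign. In knockdown, Cd163 was at 0.010 with the filter on CPM and at -0.35 to 0.19 with a liver left out, and Adgre1 at -0.0011 in limma-voom and -0.22 to 0.44. In overexpression, Csf1r was at -0.0095 with the filter on CPM, -0.0049 in 1 fit of all libraries and -0.15 to 0.22 with a liver left out, and Cd5l at -0.50 to 0.059. For the difference, Vsig4 was at 0.0089 with RLE factors, 0.0070 with no filter, 0.012 in DESeq2, 0.027 in limma-voom, 0.022 with a replicate block and -0.21 to 0.27, Clec4f at 0.012 in limma-voom and -0.33 to 0.21, and Timd4 at -0.055 to 0.44. Log2 ratios in knockdown lay at -0.012 to 0.23 for Timd4 to Clec4f, -0.0045 to 0.70 for Clec4f to Adgre1 and -0.10 to 0.16 for Cd5l to Clec4f.

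Replicate numbers did not pair the livers: deviations of same-numbered livers had r of -0.18 to 0.32 in knockdown and -0.096 to 0.24 in overexpression, and 1 and 2 of 5 livers matched best with their own number. With the block the Marco difference had an edgeR adjusted p of 0.164. Of 585 marker values under alternatives, 532 kept their sign and side of the threshold. In the main fits only the Marco difference was past the threshold, so for all other values keeping their side meant staying uncalled. Low counts, down to 42 reads, limit Timd4, Cd163 and Marco, and the spread between 5 livers limits all markers.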
